A study of Mus musculus with 8 samples.

Results

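The treatment by time interaction of BRM014 asks of each gene whether the effect of the compound after 30 h differs from its effect after 6 h. It was computed as the contrast (BRM014 at 30 h minus DMSO at 30 h) minus (BRM014 at 6 h minus DMSO at 6 h) on log2 counts, in 1 fit that held all 8 of the 8 libraries of the study. The same number is also the change from 6 h to 30 h under BRM014 minus the change from 6 h to 30 h under DMSO, so every gene was split into these 2 changes. A positive difference can therefore come from a rise under BRM014, from a fall under the vehicle, or from both.

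The cells were NMuMG, a mouse mammary gland epithelial line, grown in medium with serum and insulin. Their 4 groups received the vehicle DMSO for 6 h, DMSO for 30 h, BRM014 for 6 h or BRM014 for 30 h, and each group had 2 libraries. No genotype, transgene or other agent distinguishes the groups. Which concentration of BRM014 was used is not stated in the labels used here. The labels call the 2 libraries biological replicates without naming separate cultures or days, so the p-values measure only the spread between these libraries, which may be technical. The 6 h and 30 h cells also differ in time in culture, which is why the vehicle at each time enters the contrast.

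BRM014 inhibits the ATPase activity of SMARCA4 (BRG1) and SMARCA2 (BRM), the alternative motor subunits of the SWI/SNF chromatin remodelling complexes. These complexes slide and evict nucleosomes and keep enhancers and promoters open to transcription factors, among them AP-1 and TEAD factors at enhancers of epithelial cells. Genes that depend directly on remodelling can lose transcription soon after the motor stops, while later changes also include the responses of the cell to the first ones.

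Promoter sequences of 4 genes with large differences are printed here to show what lies upstream of genes that moved in opposite ways. Slc7a11, the cystine carrier, and Dhrs9, a retinol dehydrogenase, had a higher BRM014 effect at 30 h than at 6 h. The collagenase gene Mmp13 and the integrin beta 7 gene Itgb7 had a lower one. They were chosen after the motif matches were seen. Each runs 5′ to 3′ on the gene's strand from 250 bases before the start to 50 after it, from RefSeq on GRCm38.p6, with motif matches on either strand in capitals.
Slc7a11 (chr3:50443564-50443863, minus strand): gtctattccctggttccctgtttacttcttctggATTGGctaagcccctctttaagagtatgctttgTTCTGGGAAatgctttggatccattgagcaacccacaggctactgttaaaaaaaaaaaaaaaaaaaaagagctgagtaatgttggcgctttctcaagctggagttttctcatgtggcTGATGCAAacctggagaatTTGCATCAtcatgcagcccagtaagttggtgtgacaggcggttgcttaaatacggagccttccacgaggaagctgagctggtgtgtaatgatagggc
Dhrs9 (chr2:69380212-69380511, plus strand): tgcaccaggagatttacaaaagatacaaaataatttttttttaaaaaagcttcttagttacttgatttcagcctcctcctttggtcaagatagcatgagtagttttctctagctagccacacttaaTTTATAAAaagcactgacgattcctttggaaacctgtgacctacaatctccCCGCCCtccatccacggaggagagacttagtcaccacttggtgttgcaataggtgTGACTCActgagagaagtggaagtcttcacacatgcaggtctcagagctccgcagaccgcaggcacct
Mmp13 (chr9:7272264-7272563, plus strand): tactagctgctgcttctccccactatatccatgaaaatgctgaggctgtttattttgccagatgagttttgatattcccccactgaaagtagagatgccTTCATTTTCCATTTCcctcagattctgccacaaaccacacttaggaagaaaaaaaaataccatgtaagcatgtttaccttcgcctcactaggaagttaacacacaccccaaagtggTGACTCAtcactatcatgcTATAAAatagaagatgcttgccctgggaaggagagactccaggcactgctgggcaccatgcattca
Itgb7 (chr15:102231886-102232185, minus strand): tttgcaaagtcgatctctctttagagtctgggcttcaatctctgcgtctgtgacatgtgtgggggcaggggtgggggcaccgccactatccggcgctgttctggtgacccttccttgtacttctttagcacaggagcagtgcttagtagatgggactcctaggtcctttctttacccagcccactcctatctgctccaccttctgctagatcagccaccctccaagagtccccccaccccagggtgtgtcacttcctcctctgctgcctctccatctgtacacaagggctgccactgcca
In Slc7a11 the capitals mark a CCAAT box (CCAAT), a STAT motif (TTCNNNGAA) and 2 matches, 1 on each strand, to the amino acid response motif TGATGNAA. In Dhrs9 they mark the AP-1 motif TGANTCA, a GC box (GGGCGG) and overlapping TATA boxes (TATAAA) on the 2 strands. In Mmp13 they mark the AP-1 motif, a TATA box and 2 overlapping matches to the interferon response core GAAANNGAA. The other motifs searched were CRE (TGACGTCA), E-box (CACGTG), NF-kB (GGGANTTTC), TEAD (GGAATG), E2F (TTTNGCGC) and the sterol element (TCACCCCAC). None of the 13 motifs occurs in the window of Itgb7. Among 12051 promoters of tested genes, 2.27% held the amino acid response motif, 5.34% the AP-1 motif, 7.14% the TATA box and 6.73% the interferon core. The CCAAT box stood in 38.1%, the GC box in 63.3% and the STAT motif in 6.73%. A match describes the letters and is not a binding site. Shares over the genes with higher or lower effects were not compared. Of these genes 79.3% and 74.2% had a promoter in the table, against 79.9% of all tested genes.

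The libraries held 17859693 to 29955366 counts, and 13286 to 13922 of 21240 genes had at least 1 count in a library. On log2 CPM (counts per 1e+06 counts), the 2 libraries of a group had a Pearson r between 0.9904 and 0.9939. Of the markers of a mammary epithelial line, Krt8, Krt18, Cdh1, Itga6, Itgb4 and Dsp were tested, while Epcam and Cldn7 were at 0 counts in all 8 libraries. Of 9 macrophage markers, Adgre1 and Tyrobp were also at 0 throughout and 2 had enough counts to be tested. The summed macrophage markers stood at 45.5 to 199 CPM across the libraries. Of 8 markers each, 4 neuron, 1 fibroblast and 1 adipocyte marker were tested. No T cell or endothelial marker had enough counts to be tested.

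Values given as a number ± its standard error (SE) are log2 differences between groups of n = 2 libraries, from edgeR's quasi-likelihood test, and a gene is said to be called where its adjusted p is below 0.05. A single value in brackets after a gene is its difference of the BRM014 effects, 30 h minus 6 h, unless another quantity is named. CPM of single genes are scaled by library size and TMM factors, and summed CPM of markers by library totals alone.

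Neither inhibited ATPase gene had a transcript difference past the test. Smarca4 (Entrez 20586) read 486 and 434 CPM in DMSO at 6 h, 359 and 379.7 in DMSO at 30 h, 442 and 455 in BRM014 at 6 h and 372 and 407 in BRM014 at 30 h. Its difference was 0.11 ± 0.13 (adjusted p = 0.692), and that of Smarca2 (Entrez 67155), whose libraries ranged from 2.77 to 7.92 CPM, was 0.19 ± 0.32 (adjusted p = 0.788). None of the 26 tested SWI/SNF subunit genes passed the test of the difference.

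Across the transcriptome, the BRM014 effect differed between the times in 766 of 11835 tested genes (6.47%) at an adjusted p below 0.05. It was higher at 30 h than at 6 h in 460 of them (3.89% of tested genes) and lower in 306 (2.59%). The difference was at least 2-fold in 358 genes, 205 of them higher and 153 lower. The median difference over all tested genes was 0.01 on the log2 scale. The change with time itself was called in far more genes, 4167 (35.2%) under DMSO, with 18% of tested genes higher and 17.2% lower, and 4317 (36.5%) under BRM014, with 19.6% higher and 16.9% lower. The effect of BRM014 was called in 2815 genes (23.8%) at 6 h, with 9.35% higher and 14.4% lower, and in 4248 (35.9%) at 30 h, with 16.8% higher and 19.1% lower. The counts of higher and lower differences were smaller without DMSO 6 h replicate 1 (200 and 151), BRM014 6 h replicate 1 (241 and 149), BRM014 6 h replicate 2 (243 and 130) or BRM014 30 h replicate 2 (274 and 142), and 199 were lower without DMSO 6 h replicate 2. Bulk RNA cannot tell a change in every cell from a change in the share of cells that express a gene.

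**Figure D1:**
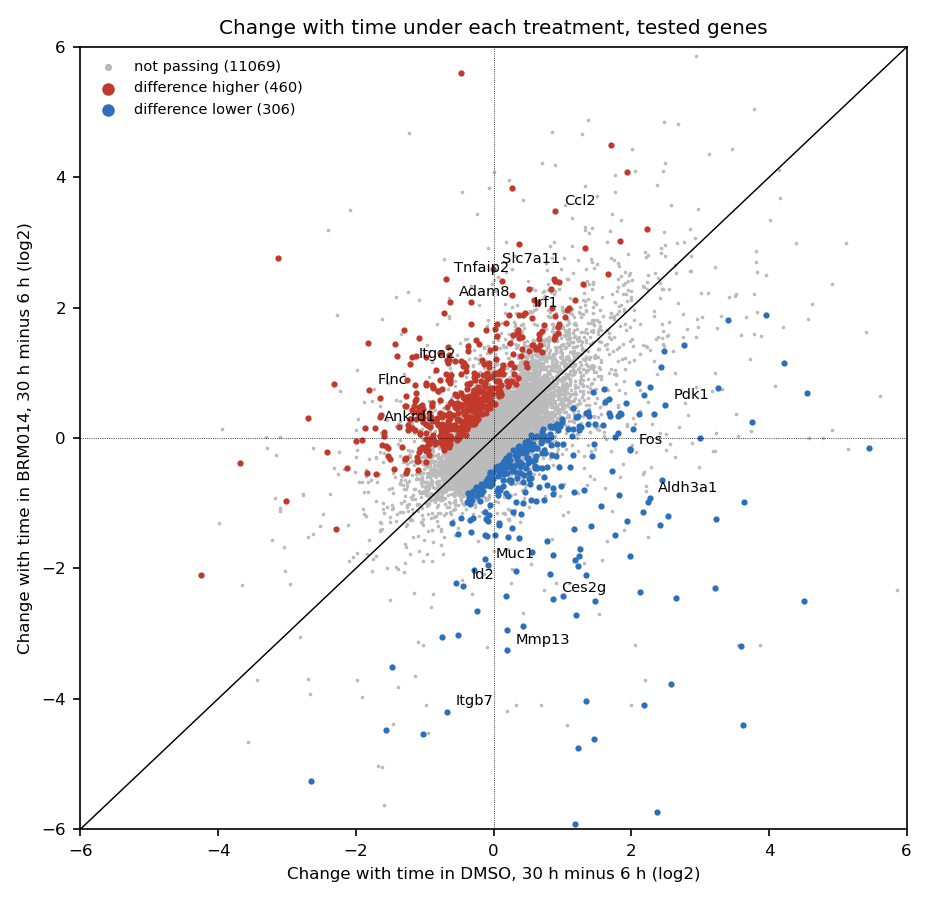
Each point is 1 tested gene, with its log2 change from 6 h to 30 h under DMSO on the horizontal axis and under BRM014 on the vertical axis. Genes on the diagonal changed alike, and the 460 genes with a higher BRM014 effect at 30 h lie above it and the 306 with a lower one below it. 11 genes fall outside the plotted range.

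The difference came from both sides in about equal parts. The change under BRM014 was the larger of the 2 in 408 of the 766 genes and the change under DMSO in 358. Among the 460 genes with a higher effect at 30 h, 143 changed with time only under DMSO, and each of these fell there. Another 165 changed with time only under BRM014, and each of these rose. A further 95 fell under DMSO and rose under BRM014, and 57 moved the same way in both but to different degrees. Among the 306 genes with a lower effect, 118 rose only under DMSO, 97 fell only under BRM014, 52 rose under DMSO and fell under BRM014, and 39 moved the same way in both. In these classes a change "only" under 1 condition means that the other change missed the threshold, and the difference itself passed in each gene. For such genes the sign of the difference largely fixes the direction of the change that passed. Their shared direction is therefore only a description.

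**Figure D2:**
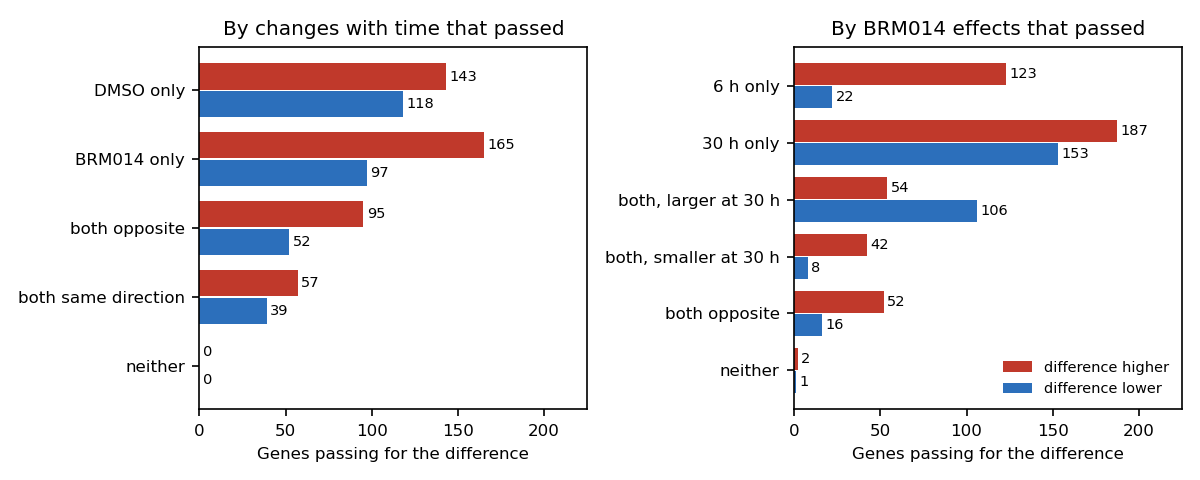
Bars count the 766 genes by which changes with time passed the test (left) and by which BRM014 effects passed (right), separately for genes with a higher and a lower BRM014 effect at 30 h. The class that changed only under BRM014 holds 165 higher and 97 lower genes, and the class that changed only under DMSO holds 143 and 118.

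The same genes can be read by the effect of BRM014 at each time. Of the 460 with a higher effect at 30 h, 187 passed only at 30 h and 123 only at 6 h. Another 54 passed at both times with a larger effect at 30 h, 42 with a smaller one, and 52 with the opposite sign. All 123 genes called only at 6 h were lower with BRM014 then, with a median effect of -0.81 at 6 h and 0.09 at 30 h. Their shared sign largely follows from choosing genes with a higher difference, and is only a description. Of the 306 with a lower effect, 153 passed only at 30 h, 106 passed at both times with a larger effect at 30 h, and 16 changed sign. Those 106 genes had a median effect of -1.36 at 6 h and -2.86 at 30 h. A total of 22 passed only at 6 h, 8 had a smaller effect at 30 h, and 3 genes passed at neither time, 2 of them higher and 1 lower.

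The shares of the classes depended on single libraries. Without DMSO 6 h replicate 1, 24.8% of the called genes changed only under DMSO and 42.5% only under BRM014, against 41.8% and 26.2% without BRM014 6 h replicate 1, and 34.1% and 34.2% with all libraries.

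The genes of basement membranes and their integrin receptors gave the highest share of called members among the lists with at least 10 tested genes. Of 24 tested members, 13 had a higher BRM014 effect at 30 h, 2 a lower one, and 9 did not pass, against 3.89% higher and 2.59% lower among all tested genes. The median difference of the list was 0.72, against 0.01 over all genes. The median change with time in the list was -0.33 under DMSO and 0.50 under BRM014. Laminins and collagen IV form the sheet to which epithelial cells attach. The laminin beta 1 gene Lamb1 (Entrez 16777) read 44.2 and 40.6 CPM in DMSO at 6 h, 20.6 and 17.8 in DMSO at 30 h, 42.4 and 44.5 in BRM014 at 6 h and 59 and 70.4 in BRM014 at 30 h. It fell under DMSO and rose under BRM014, and its BRM014 and DMSO libraries overlapped at 6 h but not at 30 h. Its difference was 1.72 ± 0.17 (adjusted p = 0.000109), from an effect of 0.04 ± 0.12 at 6 h and 1.76 ± 0.13 at 30 h. The collagen IV chains Col4a1 (1.02 ± 0.13) and Col4a2 (1.02 ± 0.14), the perlecan gene Hspg2 (1.00 ± 0.18) and the laminin chain Lama5 (1.05 ± 0.17) also had higher effects at 30 h. These 4 genes had no called effect at 6 h and rose with BRM014 at 30 h.

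Among the receptors, the collagen-binding integrin alpha 2 gene Itga2 (Entrez 16398) read 59.1 and 54.7 CPM in DMSO at 6 h, 22.4 and 26.4 in DMSO at 30 h, 21.7 and 19.2 in BRM014 at 6 h and 43.7 and 46.3 in BRM014 at 30 h. The BRM014 libraries lay below both DMSO libraries at 6 h and above both at 30 h. Its difference was 2.36 ± 0.17 (adjusted p = 1.38e-05), and both changes with time passed, -1.22 ± 0.12 under DMSO and 1.14 ± 0.12 under BRM014. The laminin-binding integrin genes Itga3 (1.15 ± 0.16) and Itga6 (0.78 ± 0.14) had higher effects at 30 h too. With BRM014, Itga6 was lower than the vehicle at 6 h (-0.36) and higher at 30 h (0.43). The integrin beta 7 gene Itgb7 (Entrez 16421), a leukocyte integrin chain, moved the other way and read 269 and 242 CPM in DMSO at 6 h, 176 and 146 in DMSO at 30 h, 41.2 and 35.2 in BRM014 at 6 h and 3.05 and 1.40 in BRM014 at 30 h. It fell at both times with BRM014 and the 4 groups did not overlap, with a difference of -3.53 ± 0.28 (adjusted p = 2.25e-05). The calls of Lamb3, Itga5, Itgav, Itgb6 and Itgb3 each ended without at least 1 of the libraries other than DMSO 30 h replicate 1 and DMSO 30 h replicate 2 (adjusted p from 0.0508 to 0.0725).

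Cytoskeletal genes were called in both directions. The actin crosslinker filamin C gene Flnc (Entrez 68794) read 259.7 and 215 CPM in DMSO at 6 h, 73.9 and 61.6 in DMSO at 30 h, 129.9 and 118 in BRM014 at 6 h and 165 and 248 in BRM014 at 30 h. It fell under DMSO and rose under BRM014, whose libraries moved from below the vehicle at 6 h to above it at 30 h. Its difference was 2.55 ± 0.23 (adjusted p = 5.56e-05), from effects of -0.94 ± 0.16 and 1.61 ± 0.17. Of 18 tested actin and contractile genes, 2 were called higher and 2 lower, against 3.89% and 2.59% of all tested genes. The median difference of the list was 0.05. The 2 called higher were the actin crosslinker Actn1 (0.87 ± 0.14) and the tropomyosin gene Tpm1 (0.83 ± 0.15). The 2 called lower were Fhl1 (-1.73 ± 0.48) and Srf (-0.77 ± 0.16), whose calls ended without at least 1 of the libraries other than DMSO 30 h replicate 1 (adjusted p from 0.0508 to 0.202). The simple-epithelium keratin genes Krt8 (0.78 ± 0.14) and Krt18 (0.70 ± 0.15) had higher effects at 30 h, and with them the summed CPM of the epithelial line markers stood at 7470 to 8590 in BRM014 at 30 h against 4910 to 6140 in the other groups. Their part in other results was not tested. Krt18 lost its call without any 1 of DMSO 6 h replicate 1, BRM014 6 h replicate 1, BRM014 6 h replicate 2 and BRM014 30 h replicate 2 (adjusted p from 0.0529 to 0.0874). The type II keratin gene Krt80 (Entrez 74127) read 103 and 87.1 CPM in DMSO at 6 h, 32.2 and 28.1 in DMSO at 30 h, 21.9 and 19.6 in BRM014 at 6 h and 30.3 and 32.8 in BRM014 at 30 h. DMSO at 6 h stood far above the other groups and the 30 h groups overlapped, so the effect went from -2.20 ± 0.13 to 0.07 ± 0.12 and the difference was 2.27 ± 0.18 (adjusted p = 1.74e-05).

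Target genes of YAP and TAZ, the coactivators of TEAD factors that respond to cell density and tension, had higher effects at 30 h in 11 of 27 tested members and lower effects in none. Over all tested genes 3.89% had a higher effect and 2.59% a lower one. The median difference of the list was 0.44. Under DMSO 19 of the 27 fell from 6 h to 30 h and 2 rose, while under BRM014 7 fell and 5 rose. Over all tested genes 17.2% fell and 18% rose under DMSO, and 16.9% fell and 19.6% rose under BRM014. Ankrd1 (Entrez 107765), a widely used YAP target, read 669 and 502 CPM in DMSO at 6 h, 169 and 187 in DMSO at 30 h, 1555 and 1404 in BRM014 at 6 h and 1675 and 1634 in BRM014 at 30 h. It fell under DMSO (-1.72 ± 0.13), while its change of 0.16 ± 0.12 under BRM014 did not pass (adjusted p = 0.324). All BRM014 libraries stood above all DMSO libraries, and the difference was 1.88 ± 0.17 (adjusted p = 5.95e-05). The tissue factor gene F3 (1.72 ± 0.20), the stress gene Gadd45b (1.75 ± 0.23), the angiomotin-family genes Amotl1 (0.96 ± 0.17) and Amotl2 (0.88 ± 0.17) and the receptor tyrosine kinase gene Axl (0.78 ± 0.13) stayed called higher with each library left out in turn. Axl differed in kind from Ankrd1, since it fell with BRM014 at 6 h (adjusted p = 5.95e-06) and had an effect of -0.22 at 30 h that did not pass (adjusted p = 0.0795). The calls of Ajuba, Crim1, Myof, Igfbp3 and Ereg each ended without at least 1 of the libraries other than DMSO 6 h replicate 2 and DMSO 30 h replicate 1 (adjusted p from 0.0515 to 0.207). With DMSO 6 h replicate 1 or BRM014 6 h replicate 2 left out, 6 members of the list were called, and without BRM014 30 h replicate 2 7 were.

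**Figure D3:**
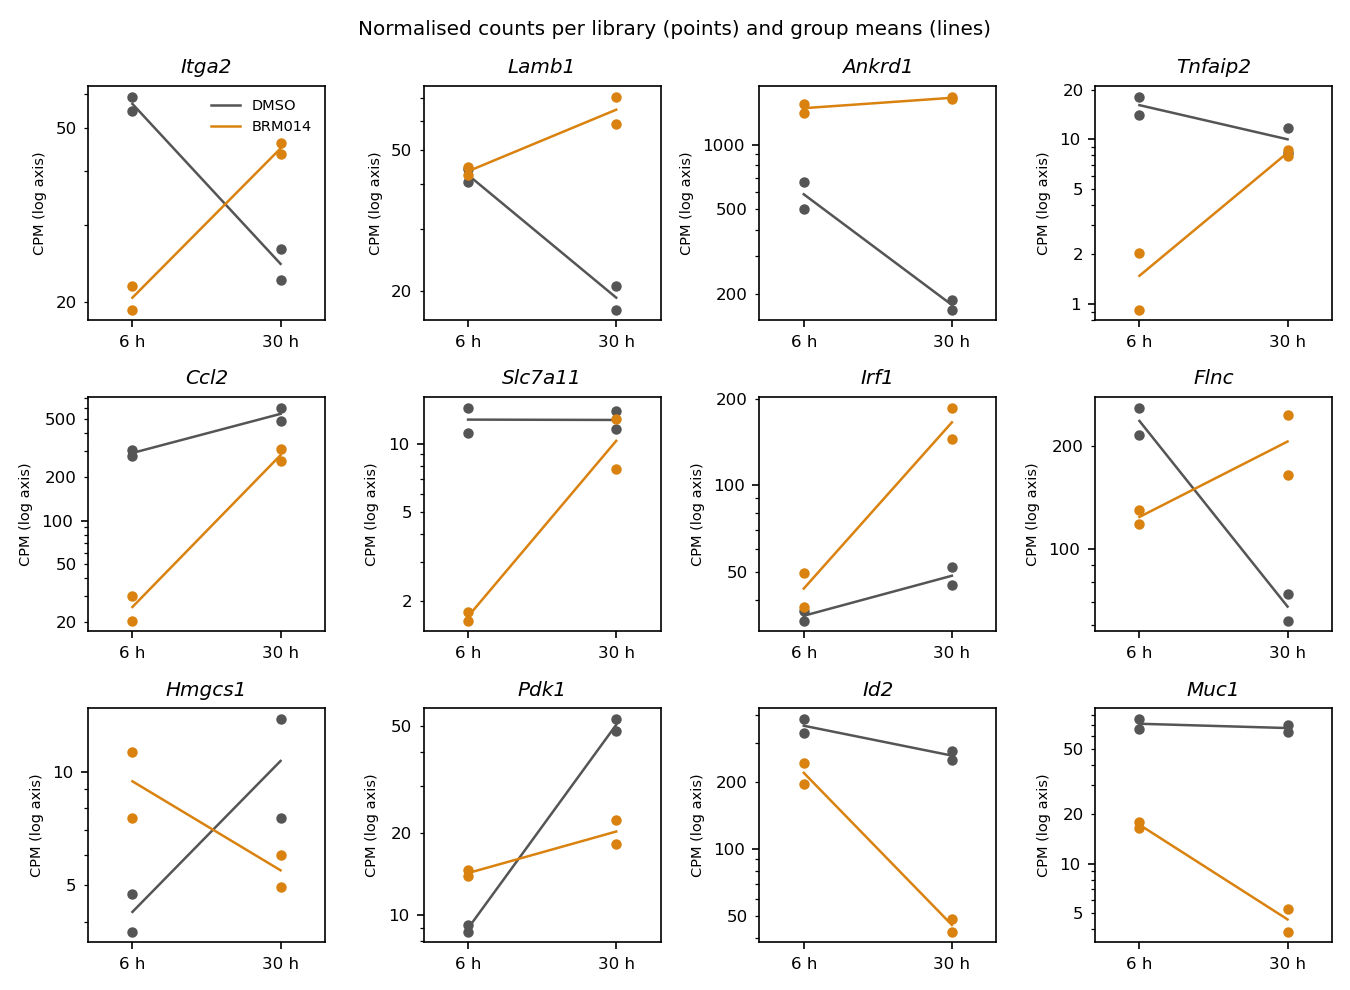
CPM of single genes in each of the 8 libraries, on a log axis, by treatment and time, with a line through the mean of the 2 libraries of each group. In Itga2, Flnc, Hmgcs1 and Pdk1 the lines for DMSO and BRM014 cross between 6 h and 30 h, in Tnfaip2, Ccl2 and Slc7a11 they draw together, and in Ankrd1, Irf1, Id2 and Muc1 they move apart.

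NF-kB and inflammatory genes had a higher BRM014 effect at 30 h in 9 of 28 tested members and a lower one in none, with a median difference of 0.72. Among all tested genes the shares were 3.89% and 2.59%. The median effect in the list was -0.48 at 6 h and 0.28 at 30 h. The chemokine gene Ccl2 (Entrez 20296) read 278 and 308 CPM in DMSO at 6 h, 602 and 489 in DMSO at 30 h, 20.3 and 30.3 in BRM014 at 6 h and 309.9 and 256 in BRM014 at 30 h. Both BRM014 libraries at 6 h stood far below every other library, and at 30 h they had risen to 1 value just above and 1 below the pair of DMSO at 6 h, both under those of DMSO at 30 h. The effect went from -3.53 ± 0.18 to -0.95 ± 0.16, a difference of 2.58 ± 0.23 (adjusted p = 3.92e-05). The TNF-induced gene Tnfaip2 (Entrez 21928) read 18.1 and 14.1 CPM in DMSO at 6 h, 11.7 and 8.31 in DMSO at 30 h, 0.924 and 2.05 in BRM014 at 6 h and 7.97 and 8.60 in BRM014 at 30 h. It was lowest in BRM014 at 6 h, and at 30 h BRM014 and DMSO libraries overlapped in range, which gave the highest difference among the genes with a mean log2 CPM of at least 2, 3.14 ± 0.39 (adjusted p = 0.000486). Csf1, the macrophage growth factor gene (0.97 ± 0.14), followed the same course, from -0.73 at 6 h to 0.24 at 30 h. The feedback inhibitor gene Tnfaip3 (0.94 ± 0.18) was below the vehicle at 6 h (-0.55) and above it at 30 h (0.39). The calls of Bcl3, Birc3, Cxcl5, Cx3cl1 and Ptgs2 each ended without at least 1 of the 8 libraries (adjusted p from 0.053 to 0.211). Of the list, 5 members were called without DMSO 6 h replicate 1, BRM014 6 h replicate 1 or BRM014 30 h replicate 2, 6 without DMSO 30 h replicate 2 or BRM014 30 h replicate 1, and 15 without DMSO 30 h replicate 1.

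Of 28 tested genes of amino acid stress and the unfolded protein response, 10 had higher effects at 30 h and none lower (median difference 0.37). Their count of 10 stands against 3.89% higher among all tested genes. This count depended on single libraries, with 2 members called without DMSO 6 h replicate 1 or BRM014 6 h replicate 2, 5 without BRM014 6 h replicate 1 and 4 without BRM014 30 h replicate 2. The member that stayed called with every library left out was Slc7a11 (Entrez 26570), which exports glutamate and brings in cystine for glutathione, and whose promoter is printed above. It read 11.1 and 14.4 CPM in DMSO at 6 h, 11.6 and 13.9 in DMSO at 30 h, 1.64 and 1.79 in BRM014 at 6 h and 7.76 and 12.8 in BRM014 at 30 h. The DMSO ranges at 6 h and 30 h overlapped, and BRM014 went from a level far below DMSO at 6 h to one that overlapped it at 30 h, with effects of -2.89 ± 0.28 and -0.29 ± 0.23 and a difference of 2.60 ± 0.36 (adjusted p = 0.000954). Its partner chain Slc3a2 (0.80 ± 0.16) and the serine pathway gene Shmt2 (0.91 ± 0.19) had smaller differences, and their calls ended without at least 1 of DMSO 6 h replicate 1 and BRM014 6 h replicate 2 (adjusted p from 0.0547 to 0.0712). The calls of the 7 other members, Ddit3, Chac1, Asns, Slc7a5, Atf5, Hspa5 and Dnajb9, each ended without at least 1 of the 8 libraries. That of Dnajb9 ended without any 1 of the 8, and also with library totals and with thinned counts. Chac1 also lost its call with DESeq2 and with limma-voom. The proline synthesis gene Pycr1 (Entrez 209027) read 14.2 and 13.2 CPM in DMSO at 6 h, 14.9 and 12.8 in DMSO at 30 h, 28.9 and 28.4 in BRM014 at 6 h and 89.2 and 92.7 in BRM014 at 30 h, with overlapping ranges under DMSO and higher values with BRM014 at both times. Its effect grew from 1.07 ± 0.12 to 2.71 ± 0.12 (adjusted p of the difference = 0.000109).

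Antigen presentation and interferon response genes had higher effects at 30 h where they passed. Of 15 tested antigen presentation genes, 5 had a higher effect at 30 h and none a lower one (median 0.77), and of 26 interferon response genes 4 and none (median 0.42). The shares among all tested genes were 3.89% higher and 2.59% lower. The MHC class I heavy chain gene H2-K1 (Entrez 14972) read 16.4 and 15.4 CPM in DMSO at 6 h, 35.9 and 30.5 in DMSO at 30 h, 16.2 and 15.8 in BRM014 at 6 h and 61.5 and 63 in BRM014 at 30 h. The 6 h groups overlapped, and at 30 h both treatments stood higher than at 6 h, with BRM014 above DMSO. Its difference was 0.90 ± 0.17 (adjusted p = 0.00641), and those of H2-D1 and the nonclassical class I gene H2-T23 were 0.98 ± 0.14 and 1.78 ± 0.30. Class I genes are near-identical in part, so reads could be split between them. The interferon regulatory factor gene Irf1 (1.46 ± 0.21) and the ADP-ribosyltransferase gene Parp14 (2.14 ± 0.38) were called with every library left out in turn, with Irf1 at 36.5 and 33.8 CPM in DMSO at 6 h, 45.1 and 51.9 in DMSO at 30 h, 37.9 and 49.6 in BRM014 at 6 h and 145 and 186 in BRM014 at 30 h. The BRM014 30 h libraries of Irf1 stood above all others. The guanylate-binding protein genes Gbp2 (2.78 ± 0.66) and Gbp3 and the antigen processing genes Psmb10 (0.77 ± 0.21) and Psme1 (0.62 ± 0.15) lost their calls without at least 1 of the libraries other than DMSO 30 h replicate 1 (adjusted p from 0.057 to 0.366). Gbp3 had at most 3 counts in each library of the other 3 groups and 45 and 81 in BRM014 at 30 h. Gbp3 had enough counts to be tested only through that group, where it is high, so its call adds no support to the list's count. With a minimum of 1 CPM in 4 or more libraries, 2 interferon response genes were called higher. Without DMSO 6 h replicate 1, DMSO 30 h replicate 2 or either BRM014 6 h library, 3 antigen presentation genes were called, and without any 1 of the 6 h libraries 2 interferon genes were.

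Of 17 tested genes of metalloproteases and plasminogen activation, 4 had a higher effect at 30 h and 2 a lower one, and 3 and 1 without BRM014 6 h replicate 1 or BRM014 30 h replicate 2. Among all tested genes 3.89% had a higher effect at 30 h and 2.59% a lower one. The membrane protease gene Adam8 (Entrez 11501) read 18 and 22.3 CPM in DMSO at 6 h, 16.2 and 10.1 in DMSO at 30 h, 12.5 and 16.5 in BRM014 at 6 h and 62 and 61.4 in BRM014 at 30 h. It did not pass at 6 h and its BRM014 30 h libraries stood well above all others, with a difference of 2.71 ± 0.28 (adjusted p = 0.000121). The urokinase receptor gene Plaur (1.52 ± 0.21) fell with time under DMSO (-1.11) and rose under BRM014 (0.41 ± 0.15). Mmp14 (0.59 ± 0.16), also called higher, lost its call without any 1 of the libraries other than DMSO 6 h replicate 2 and DMSO 30 h replicate 1 (adjusted p from 0.0926 to 0.21). Mmp13 (Entrez 17386), a collagenase gene, read 30.6 and 25.2 CPM in DMSO at 6 h, 25.2 and 38.7 in DMSO at 30 h, 3.18 and 2.73 in BRM014 at 6 h and 0.214 and 0.358 in BRM014 at 30 h. All BRM014 libraries were below all DMSO libraries and the 30 h ones, with 4 and 11 counts, were the lowest, so the effect went from -3.24 ± 0.23 to -6.70 ± 0.32 and the difference was -3.46 ± 0.45 (adjusted p = 0.000708). Mmp19 (-3.79 ± 0.78) lost its call without any 1 of BRM014 6 h replicate 1 and BRM014 30 h replicate 2 (adjusted p from 0.0847 to 0.105).

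**Figure D4:**
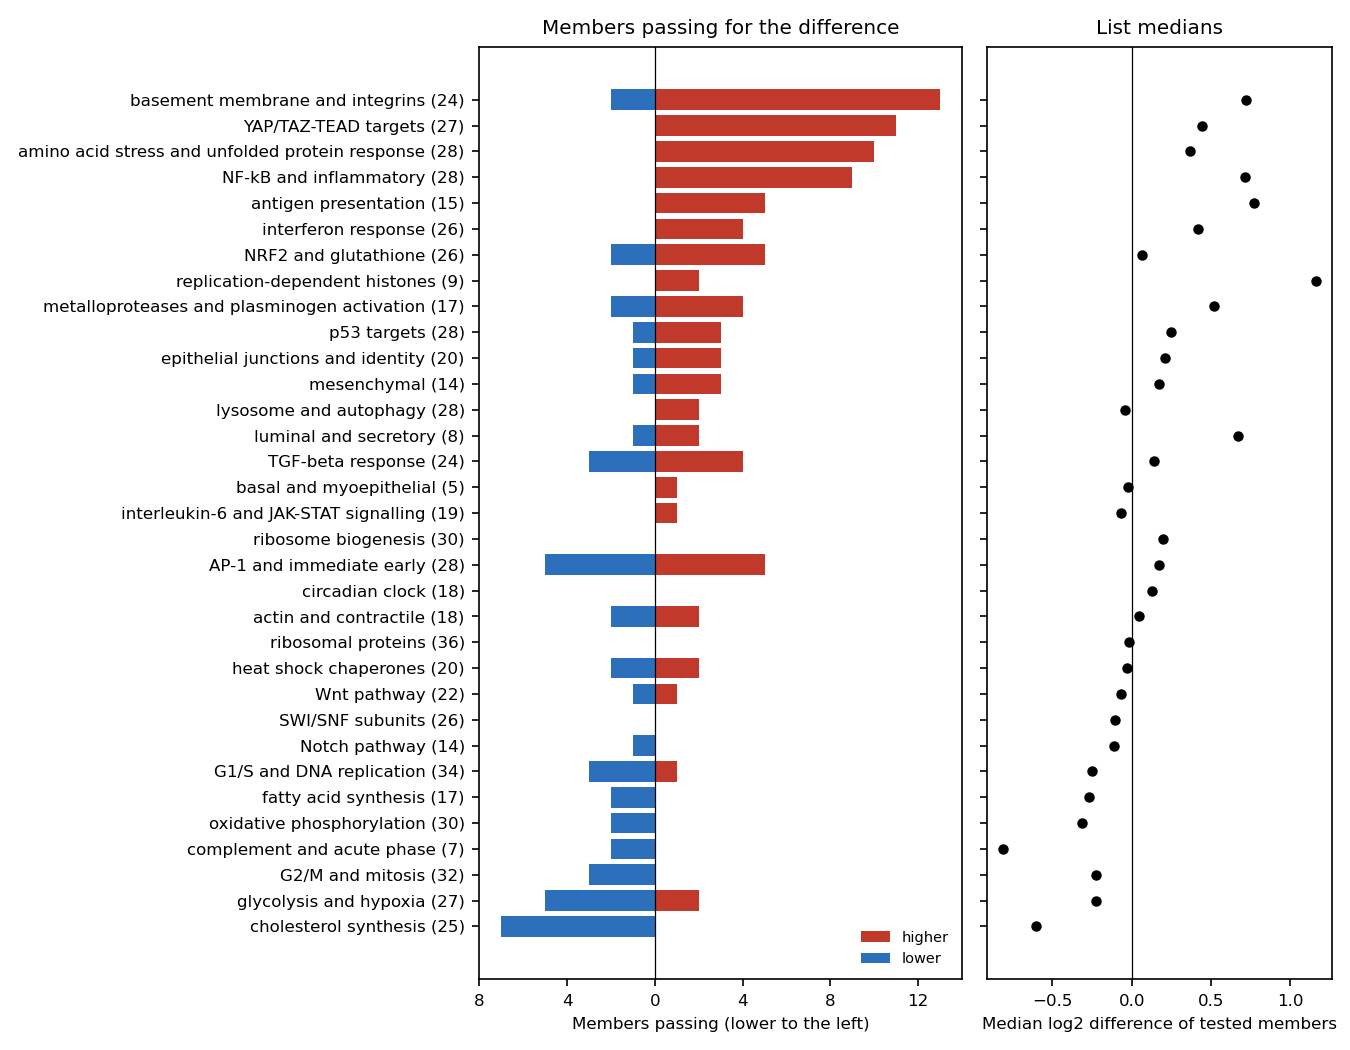
For each of the 33 lists, bars count the members called higher (right of 0) and lower (left of 0), and points give the median log2 difference of its tested members, whose number stands in brackets. Basement membrane and integrin genes have 13 higher and 2 lower of 24, and cholesterol synthesis genes 0 higher and 7 lower of 25.

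Cholesterol synthesis genes moved in the opposite direction. Of 25 tested, 7 had a lower BRM014 effect at 30 h than at 6 h and none a higher one, with a median difference of -0.60. Among all tested genes 2.59% were lower and 3.89% higher. The list's median effect was 0.28 at 6 h, when 5 members were higher with BRM014 and 3 lower. It was -0.50 at 30 h, when 2 were higher and 13 lower. Of all tested genes 9.35% were higher with BRM014 and 14.4% lower at 6 h, and 16.8% and 19.1% at 30 h. Hmgcs1 (Entrez 208715), which makes the precursor HMG-CoA, read 3.76 and 4.73 CPM in DMSO at 6 h, 13.8 and 7.53 in DMSO at 30 h, 7.54 and 11.3 in BRM014 at 6 h and 5.99 and 4.95 in BRM014 at 30 h. BRM014 stood above DMSO at 6 h and below it at 30 h, with effects of 1.16 ± 0.30 and -0.96 ± 0.28 and a difference of -2.12 ± 0.41 (adjusted p = 0.00772). Acat2, a thiolase gene of the same route, had a difference of -0.88 ± 0.15 (adjusted p = 0.00378). The calls of Mvk, Idi1, Fdps and Ebp each ended without at least 1 of the libraries other than DMSO 30 h replicate 1 (adjusted p from 0.0619 to 0.161). Without DMSO 30 h replicate 1, 18 members were called, and without BRM014 30 h replicate 2 8 were, while 2 to 4 were without 1 of the 6 other libraries.

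Of 27 tested glycolysis and hypoxia genes, 5 had a lower effect at 30 h and 2 a higher one. Among all tested genes the shares were 2.59% and 3.89%. Pdk1 (Entrez 228026), the kinase gene that limits entry of pyruvate into mitochondria, read 9.20 and 8.68 CPM in DMSO at 6 h, 47.7 and 53 in DMSO at 30 h, 14.7 and 13.9 in BRM014 at 6 h and 22.4 and 18.3 in BRM014 at 30 h. It rose with time in both treatments, more under DMSO, so BRM014 was above DMSO at 6 h and below it at 30 h, with a difference of -1.99 ± 0.20 (adjusted p = 0.000109). Lactate dehydrogenase Ldha (-0.81 ± 0.12) rose under DMSO and fell under BRM014, and the oxygen sensor gene Egln3 (-0.74 ± 0.13) rose under DMSO (0.73) and changed by -0.01 under BRM014, which did not pass. The hexokinase gene Hk2 (1.36 ± 0.19) went against them and fell with time under DMSO (-1.24), from above the BRM014 libraries at 6 h to below them at 30 h. The list gave 1 higher and 5 lower members without DMSO 6 h replicate 1, 2 and 3 without DMSO 6 h replicate 2, and 1 and 3 without either BRM014 6 h library or BRM014 30 h replicate 2. The calls of Bnip3, Ankrd37 and Vegfa each ended without at least 1 of the libraries other than DMSO 30 h replicate 1 (adjusted p from 0.0583 to 0.168). Of 30 tested oxidative phosphorylation genes 2 passed (6.67%, against 6.47% of all tested genes), Cyc1 and Sdhd. Both had a lower effect at 30 h, as 2.59% of all tested genes did, and the list's median difference was -0.31. With BRM014, 18 members were lower than the vehicle at 30 h and none at 6 h (19.1% and 14.4% of all tested genes). Under DMSO 13 members rose with time and under BRM014 none did (18% and 19.6% of all tested genes). Of 17 fatty acid synthesis genes 2 had a lower effect at 30 h (Acsl3 and Fads1). These 4 calls each ended without at least 1 of the 8 libraries (adjusted p from 0.05 to 0.161).

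Id2 and Id1, inhibitors of basic helix-loop-helix factors and targets of BMP signalling, had lower effects at 30 h. Id2 (Entrez 15902) read 329.9 and 384 CPM in DMSO at 6 h, 251 and 274 in DMSO at 30 h, 195 and 244 in BRM014 at 6 h and 48.9 and 42.7 in BRM014 at 30 h, so that the BRM014 30 h libraries were the lowest and all BRM014 libraries lay below all DMSO libraries. Its difference was -1.82 ± 0.17 (adjusted p = 8.35e-05), and that of Id1 was -0.96 ± 0.14. Over all tested genes 3.89% were called higher and 2.59% lower. Of 24 tested TGF-beta response genes, 4 were called higher, Tgfbr2, Pmepa1 and Inhba among them, and 3 lower (Id1, Id2 and Id3), with 2 and 2 called without DMSO 6 h replicate 1 or BRM014 6 h replicate 2 and 7 and 3 without DMSO 30 h replicate 1. The calls of Id3, Tgfbr2, Pmepa1 and Inhba each ended without at least 1 of the libraries other than DMSO 6 h replicate 2 and DMSO 30 h replicate 1 (adjusted p from 0.0531 to 0.132).

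The 8 lowest differences among genes with a mean log2 CPM of at least 2 were those of Itgb7, Tnnt2, Mmp13, Habp2, Pilra, Ces2g, Pilrb1 and Lgals4. The calcium-binding protein gene S100a4 (Entrez 20198) read 775 and 815 CPM in DMSO at 6 h, 1029 and 969 in DMSO at 30 h, 411 and 424 in BRM014 at 6 h and 112 and 91.2 in BRM014 at 30 h. It rose slightly under DMSO, fell under BRM014, and the 4 groups did not overlap, with a difference of -2.37 ± 0.15 and the smallest adjusted p among the named genes, 3.18e-06. The mucin gene Muc1 (-1.86 ± 0.21) had an effect of -2.04 at 6 h and -3.90 at 30 h. The carboxylesterase gene Ces2g (Entrez 72361) read 25.7 and 30.6 CPM in DMSO at 6 h, 52.5 and 49.5 in DMSO at 30 h, 11.8 and 10.2 in BRM014 at 6 h and 2.46 and 1.66 in BRM014 at 30 h, with BRM014 below DMSO at both times and lowest at 30 h (difference -3.32 ± 0.25, adjusted p = 1.43e-05). The galectin genes Lgals4 (-3.24 ± 0.46) and Lgals2 (-2.60 ± 0.16), the hyaluronan-binding protease gene Habp2 (-3.44 ± 0.61), the troponin gene Tnnt2 (-3.52 ± 0.50) and the paired receptor genes Pilra (-3.43 ± 0.39) and Pilrb1 (-3.32 ± 0.41) all had larger negative effects at 30 h. Pilra and Pilrb1 are close paralogs, and their reads could be split. The tight junction gene Cldn2 was already -4.26 ± 0.15 at 6 h and -5.40 ± 0.16 at 30 h, a difference of -1.13 ± 0.19. Of 7 tested complement and acute phase genes, the factor B gene Cfb and the lipopolysaccharide-binding protein gene Lbp had lower effects at 30 h (-5.52 ± 0.48 and -1.59 ± 0.29). The other 5 did not pass, and the median difference of the list was -0.81. Among all tested genes 2.59% had a lower effect and 3.89% a higher one. Cfb rose under DMSO (3.22) and fell under BRM014 (-2.30), where 3 and 8 counts were left at 30 h. Lbp rose in both, by 3.40 and 1.80 on the log2 scale. Cd14, which makes up most of the summed macrophage markers (178 to 199 CPM in DMSO at 30 h, 45.5 to 95.7 in the other groups), had a difference of -0.31 ± 0.15 that did not pass (adjusted p = 0.27).

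**Figure D5:**
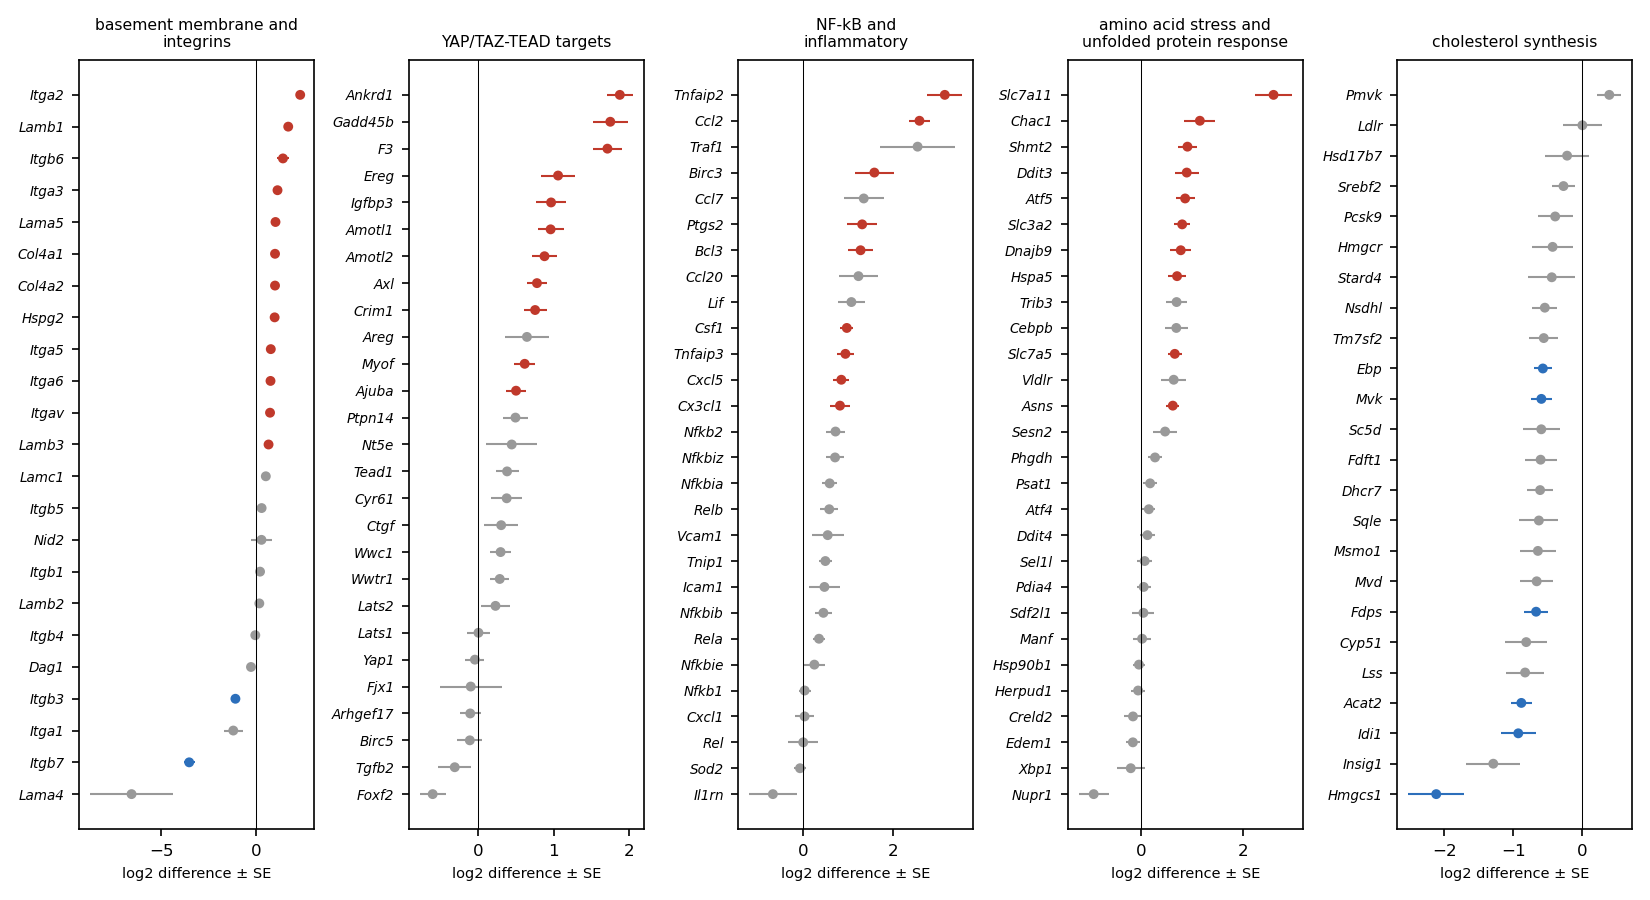
Log2 difference of the BRM014 effects for members of selected lists, a few left out, with the standard error as a bar. Red and blue points are members called higher and lower at an adjusted p below 0.05, and grey points did not pass. Called members of the basement membrane and integrin list lie to the right of 0 except Itgb3 and Itgb7, and those of cholesterol synthesis lie to the left.

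Immediate early genes were split, with 5 of 28 tested members higher and 5 lower, against 3.89% and 2.59% of all tested genes. The AP-1 gene Fos (Entrez 14281) read 8.64 and 8.73 CPM in DMSO at 6 h, 40.5 and 28.3 in DMSO at 30 h, 10.0 and 8.02 in BRM014 at 6 h and 9.42 and 6.58 in BRM014 at 30 h. Only DMSO at 30 h stood apart, so the difference of -2.17 ± 0.30 (adjusted p = 0.00098) came from a rise under DMSO (1.98). The zinc finger factor gene Egr1 (-1.90 ± 0.36) and the antiproliferative gene Btg2 (-1.25 ± 0.21) also rose under DMSO (2.03 and 2.09), and with BRM014 they were already above the vehicle at 6 h (1.59 and 1.81). Ier3 (1.31 ± 0.23), by contrast, fell with time under DMSO (-0.93). The calls of Fosl2, Atf3, Nr4a1, Klf6, Ier2 and Zfp36 each ended without at least 1 of the 8 libraries (adjusted p from 0.0528 to 0.22). The list's median of 0.17 turned to -0.09 without DMSO 6 h replicate 1, when 1 member was called higher and 5 lower. The counts were 2 and 4 without BRM014 6 h replicate 2, 3 and 4 without BRM014 30 h replicate 1, 3 and 3 without BRM014 30 h replicate 2, 4 and 3 without BRM014 6 h replicate 1, and 7 and 3 without DMSO 6 h replicate 2.

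NRF2 and glutathione genes were split as well, with 5 of 26 higher and 2 lower, against 3.89% and 2.59% of all tested genes. The heme oxygenase gene Hmox1 (Entrez 15368) read 299.5 and 304 CPM in DMSO at 6 h, 124 and 128 in DMSO at 30 h, 277 and 322 in BRM014 at 6 h and 436 and 676 in BRM014 at 30 h. The 6 h groups overlapped, DMSO then fell and BRM014 rose, with a difference of 2.15 ± 0.22 (adjusted p = 0.000121). Osgin1 (1.26 ± 0.23) and the glutathione transferase gene Gsta4 (1.06 ± 0.15) were higher, and the transferase genes Gsta1 (-1.41 ± 0.22) and Gstm1 (-1.53 ± 0.23) lower. Gstm1 rose under DMSO from 17.3 and 19.8 to 70.2 and 99.2 CPM and under BRM014 from 9.60 and 9.93 to 15.9 and 15. The pentose phosphate gene Pgd lost its call without any 1 of the libraries other than BRM014 30 h replicate 1 (adjusted p from 0.062 to 0.167).

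Cell cycle genes changed with time in both treatments, and a smaller number passed the test of the difference. Of 34 tested G1/S and replication genes, 24 fell with time under DMSO and 30 under BRM014, against 17.2% and 16.9% of all tested genes, while 3 had a lower effect at 30 h and 1, the cyclin gene Ccnd1 (0.74 ± 0.12), a higher one. Of 32 G2/M genes, 17 and 31 fell with time, and 3 had a lower effect at 30 h. The difference was called in 11.8% of the G1/S and 9.38% of the G2/M genes, against 6.47% of all tested genes. Among all tested genes 2.59% had a lower effect at 30 h. The median differences of the 2 lists were -0.247 and -0.225. With ribosomal protein scaling 8 G1/S and 7 G2/M genes fell under DMSO and 23 and 21 under BRM014. Under DMSO 13 and 11 fell without DMSO 6 h replicate 1, and 11 G2/M genes with library totals. The calls of Prim1, Mcm5, Mcm6, Bub1b, Cdc20 and Ttk each ended without at least 1 of the 8 libraries (adjusted p from 0.052 to 0.188). Of 30 tested ribosome biogenesis genes, 29 fell with time under DMSO and 28 under BRM014 (26 and 19 with ribosomal protein scaling), and none passed the test of the difference. None of 36 ribosomal protein genes and none of 18 circadian clock genes passed it either. The p53 target genes gave 3 higher and 1 lower of 28, against 3.89% and 2.59% of all tested genes. Gadd45a (1.10 ± 0.20) and Btg2 stayed called with each library left out, and the calls of Mdm2 and Plk2 ended without at least 1 of DMSO 6 h replicate 1, DMSO 30 h replicate 2, BRM014 6 h replicate 2 and BRM014 30 h replicate 1 (adjusted p from 0.0507 to 0.198).

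In the remaining lists the numbers called were small, but several shares stood above the 6.47% of all tested genes. The share called was 37.5% of luminal and secretory, 28.6% of mesenchymal and 22.2% of replication-dependent histone genes. It was 20% in each of the epithelial junction, basal and heat shock lists. For the Wnt list it was 9.09%, for the Notch and lysosome lists 7.14% each, and for the interleukin-6 list 5.26%. The fibronectin gene Fn1 (0.87 ± 0.14) was higher and fell with time under DMSO (-1.08), as 1 of 3 higher and 1 lower members of 14 tested mesenchymal genes, the others being Cdh2, Mmp14 and S100a4. Of 20 tested genes of epithelial junctions and identity, 3 were higher (Krt8, Krt18 and Tjp1) and 1 lower (Cldn2), and of 8 luminal and secretory genes 2 were higher (Krt8 and Krt18) and 1 lower (Muc1). Of 5 tested basal and myoepithelial genes 1 was higher (Lamb3), and of 9 replication-dependent histone genes 2 (Hist1h1c and Hist1h2bc). Heat shock chaperones gave 2 higher (Cryab and Dnajb4) and 2 lower (Dnajb1 and Hsph1) of 20. Of 28 tested lysosome and autophagy genes 2 were higher (Ctsl and Wipi1), and of 19 interleukin-6 and JAK-STAT genes 1 (Il11). With DESeq2 Il11 was not called (adjusted p = 0.0665). The Wnt list gave 1 higher (Wnt7a) and 1 lower (Fzd1) of 22, and the Notch list 1 lower (Hes1) of 14. The calls of Cdh2, Tjp1, Hist1h1c, Hist1h2bc, Cryab, Dnajb4, Dnajb1, Hsph1, Ctsl, Wipi1, Il11, Wnt7a, Fzd1 and Hes1 each ended without at least 1 of the 8 libraries (adjusted p from 0.0503 to 0.175).

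Genes whose effect passed at both times with opposite signs numbered 52 with a fall then a rise and 16 with a rise then a fall. Besides Itga2 and Flnc, the first kind included the lymphangiogenic matrix gene Ccbe1 (Entrez 320924), at 82.4 and 76.9 CPM in DMSO at 6 h, 21.5 and 20.9 in DMSO at 30 h, 27.8 and 30.1 in BRM014 at 6 h and 27.6 and 29.4 in BRM014 at 30 h. DMSO at 6 h stood far above the other 3 groups, and the BRM014 ranges overlapped, so the effect went from -1.46 ± 0.11 to 0.43 ± 0.11 (difference 1.89 ± 0.15, adjusted p = 2.35e-05). Nbeal2, a gene for platelet granule formation, went from -0.92 to 1.04, with changes of opposite sign under DMSO and BRM014 (-1.14 and 0.82). The second kind included Pdk1, Hmgcs1 and the receptor gene Ephb6 (-2.14 ± 0.36, from 1.08 to -1.06).

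Other genes show the classes in their simplest form. Fbln2, a matrix glycoprotein gene, changed with time only under DMSO, with 1820.0 and 1727 CPM in DMSO at 6 h, 674 and 553 in DMSO at 30 h, 2301 and 2157 in BRM014 at 6 h and 1967 and 2041 in BRM014 at 30 h. Its DMSO libraries at 30 h lay below all others (difference 1.38 ± 0.14). St3gal1, a sialyltransferase gene, changed only under BRM014, with 61.2 and 59.1 CPM in DMSO at 6 h, 61.1 and 63.4 in DMSO at 30 h, 23.2 and 19.1 in BRM014 at 6 h and 66.1 and 58.9 in BRM014 at 30 h. Its BRM014 libraries at 6 h lay below all others (difference 1.51 ± 0.16). Gchfr, the regulator gene of GTP cyclohydrolase, rose in both, by 0.65 under DMSO and 2.07 under BRM014 (difference 1.42 ± 0.19).

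A difference of log2 changes need not have the sign of the difference in CPM, and in 15 of the 766 genes (1.96%) the CPM means gave the opposite sign, 14 of them genes that moved the same way in both treatments. With each library left out in turn, 261 of the 766 genes (34.1%) stayed called in all 8 fits, 167 higher and 94 lower.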

How the data were processed

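RNA of NMuMG cells was measured in 4 groups of 2 libraries. The authors deposited 1 table of unnormalized read counts, 1 line a gene with its Entrez number and symbol and no coordinates. Subread, featureCounts, SAMtools 0.1.19 and mm9 stand in the submitters' processing notes. How strand was counted and with which annotation is not stated there, so reads of overlapping and antisense genes could not be told apart. Totals ran from 17859693 to 29955366 counts.

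Tests used edgeR 4.0.16 (R 4.3.3). filterByExpr kept 11835 of 21240 genes (55.7%), TMM factors ran from 0.935 to 1.05, and 1 quasi-likelihood fit of the 4 groups (4 residual degrees of freedom) gave the difference, both changes with time and both effects. Tests were 2-sided with Benjamini-Hochberg adjustment over all tested genes and a threshold of 0.05. The SE is the log2 value divided by the square root of F. The biological coefficient of variation was 9.3%. On simulated counts, 88% of 100 genes changed 2-fold and 98% of 100 changed 3-fold in the difference were recovered, and 9.71% of 206 calls were false. That false share is above the threshold of 0.05. The changed genes were drawn from those with an average log2 CPM above 2 and the spread was that of the fit. Recovery of genes with lower counts was therefore not covered.

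The members and the 33 gene lists and 7 marker lists (922 entries, 920 found) were chosen with earlier results of these data known, and some genes belong to several lists. Named genes were Smarca4 and Smarca2, the 8 highest and 8 lowest differences among called genes with a mean log2 CPM of at least 2, the 3 smallest p of each class and direction and of each list with at least 3 called members, and the 4 smallest p per direction among genes with opposite effects at the 2 times. Symbols of unnamed or small RNA genes were left out, and a few other genes that these rules reach are not reported here. Other genes were named as called members of a list or after their values were seen. Motifs were searched on both strands of RefSeq promoters (GRCm38.p6), with a promoter for 9461 tested genes (79.9%). Alternatives were RLE factors, library totals, ribosomal protein scaling, DESeq2 1.42.0, voom in limma 3.58.1, a replicate block, no filter, a minimum of 1 CPM in 4 or more libraries, thinned counts, a fold of 1.5 for the classes and each library left out. Class counts with libraries left out and list counts under the alternatives were added after the data were seen.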

Additional observations from a re-analysis of the deposited data

Results flagged for a closer look

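A test of the difference itself, the interaction term, marked 460 genes with a higher BRM014 effect at 30 h than at 6 h and 306 with a lower one. The genes named in the report carry its values. Groups of 2 libraries are too small to look for a single library that stands apart within its group.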

How the results depend on the processing

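Of 162 genes given a value under each alternative, no call turned its sign and 82 lost the call in at least 1, 78 of them with a library left out. The counts of higher and lower differences (460 and 306) were 261 and 115 with ribosomal protein scaling and 719 and 590 without a filter. With 1 library left out they ranged from 200 to 533 and from 130 to 388, the fewest higher without DMSO 6 h replicate 1 and the fewest lower without BRM014 6 h replicate 2. The replicate block gave 726 and 511, which held all 460 and 306, but the shared numbers were not taken as pairs, since replicate 1 libraries deviated together with r = 0.011 to 0.201 over the 6 pairs of groups. Ribosomal protein scaling shifted the median of all genes by 0.11 in the change under DMSO and 0.12 under BRM014 and by 0.01 in the difference, and called 821 genes lower with time in DMSO, 751 lower with time in BRM014, 1106 lower with BRM014 at 6 h and 1433 lower at 30 h. Library totals called 1691 genes higher with BRM014 at 6 h. Ranges with 1 library left out were 1293 to 2160 (change with time in DMSO, higher), 1038 to 2097 (change with time in DMSO, lower), 1229 to 2492 (change with time in BRM014, higher), 998 to 2222 (change with time in BRM014, lower), 416 to 1415 (BRM014 effect at 6 h, higher), 999 to 1874 (BRM014 effect at 6 h, lower), 87 to 321 (the class DMSO only), 102 to 327 (the class BRM014 only), 83 to 160 (the class both opposite), 32 to 104 (the class both same direction) and 0 to 9 (the class neither). With a fold of at least 1.5 in place of the adjusted p, 96 of the 766 genes changed in both treatments in opposite directions, 60 in the same direction and 170 in neither, and with library totals 2 were in neither. The lists of cholesterol synthesis, basement membranes and integrins, and amino acid stress had 1 lower, 9 higher and 6 higher members with ribosomal protein scaling. NF-kB genes had 19 higher members without a filter and 14 with DESeq2, and cholesterol genes 18 lower without a filter. For these shifts the cause was not tested. With 2 libraries a group, differences near 2-fold were recovered less fully than 3-fold ones in simulation, and a left-out library leaves a lone one that is assumed to vary like the others.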

Other observations

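Some called genes outside the lists were singled out after their values and directions were seen, so they show nothing about the groups they belong to. Of the genes known from focal adhesions and actin-based protrusions, 4 singled out in this way had higher BRM014 effects at 30 h: Parvb (1.07 ± 0.15), Tns3 (0.88 ± 0.13), Phldb2 (1.17 ± 0.13) and Myo10 (1.17 ± 0.13). Myo10, an unconventional myosin gene, read 292 and 280.3 CPM in DMSO at 6 h, 139 and 154 in DMSO at 30 h, 278 and 288 in BRM014 at 6 h and 318 and 335 in BRM014 at 30 h. The DMSO 30 h libraries lay below all others, and the same held for Parvb and Phldb2. For Tns3 the DMSO 30 h libraries ranged from 289 to 326 CPM, above the 269 to 277 CPM of BRM014 at 6 h. All 4 stayed called with each library left out in turn.

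Of the enzyme genes known from xenobiotic metabolism, 4 singled out likewise had lower effects at 30 h. Others had higher ones, among them Gsta4, a listed glutathione transferase gene (1.06 ± 0.15), Sult2b1, and Aldh3b1, a relative of Aldh3a1. Enzymes of this kind were thus called in both directions. The 4 with lower effects were the aldehyde dehydrogenase gene Aldh3a1 (-3.19 ± 0.28), the aldo-keto reductase gene Akr1c19 (-3.09 ± 0.43), the glutathione transferase gene Gstm2 (-2.60 ± 0.34) and the epoxide hydrolase gene Ephx1 (-1.29 ± 0.17). Aldh3a1 read 11.8 and 12.1 CPM in DMSO at 6 h, 55.4 and 59.8 in DMSO at 30 h, 4.62 and 3.88 in BRM014 at 6 h and 2.89 and 1.76 in BRM014 at 30 h. In all 4 genes the DMSO 30 h libraries lay above all others and every BRM014 library below every DMSO library. These genes belong to families of close paralogs, whose reads could be split. All 4 stayed called with each library left out in turn.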
